A study of Homo sapiens with 20 samples.

Results

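The 10 genes described here, MET, MST1R, AXL, MERTK, IGF1R, INSR, FGFR1, FGFR2, FGFR3 and DDR1, code for receptor tyrosine kinases outside the EGFR family. They were chosen by gene symbol and are 10 of the 60271 genes in the deposited tables. Their mRNA levels were followed in MDA-MB-468, an EGFR-rich human cell line from a triple negative breast cancer, in which EGF induces an epithelial-mesenchymal transition (EMT). By the authors' EMT protocol, the cells were deprived of serum for 24 h before EGF. They were kept without EGF (control) or exposed to it at 50 ng/mL, over 12, 24, 48 or 72 h. Each of the 5 groups held 4 biological replicates, which gave 20 libraries. All groups were plated and collected at the same time, so that the groups differed in when EGF was added and a single control group serves all 4 time points. Time in culture before EGF thus differed between the EGF groups, and the time without serum may have differed too. Neither can be told apart from the time with EGF. The data come from 1 cell line in culture without the stromal cells that make many of the ligands, and from poly(A) RNA counted per gene, so that splice forms, receptor protein and receptor phosphorylation were not measured.

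A typical receptor tyrosine kinase binds its ligand outside the cell, pairs with another receptor and phosphorylates its own part inside the cell. Adaptor proteins then bind there and start the RAS-MAPK and PI3K-AKT pathways, although not every receptor follows each of these steps. Different receptors share many of these adaptors, so that one receptor can take over from another in tumor cells. MET, MST1R and AXL are known for roles in cell scattering, invasion and EMT, IGF1R and INSR for growth and metabolism, the FGFRs for proliferation and differentiation, and DDR1 for the contact with collagen.

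The total of the estimated counts per library was between 15611961 and 25856953, with a median of 20398047. Levels are counts per 1000000 counts (CPM) after TMM scaling, and ± gives the SD of the 4 libraries in each group. All 10 receptors passed the filter on low counts, as did 16522 genes in all. Replicates differed by more than counting error, as the variance in the 30 replicate pairs was 3.53 to 57.5 times that of sampling. Mitochondrial genes held 9.03% to 12.6% of the counts in the control, 7.69% to 11.3% at 12 h, 11.1% to 13.8% at 24 h, 9.83% to 16.9% at 48 h and 12.3% to 16.4% at 72 h. This share moved with the groups, and its part in the results was not tested. All 9 genes known for this line passed the filter, with EGFR at 3474 ± 103 CPM in the control, and they summed to 5178 to 5719 CPM without EGF and to 20358 to 21270 CPM at 12 h. Of the receptors that a triple negative line lacks, PGR had 0 counts in every library, while ESR1 was at 5.03 ± 1.06 CPM and ERBB2 at 21.5 ± 2.96 CPM in the control. Among markers of other cell types, only 1 of 6 fibroblast, 2 of 4 endothelial and 2 of 5 leukocyte markers passed the filter. LUM, COL1A2 and COL3A1 had at most 1 count and PTPRC at most 8 counts in any library. By contrast, CD14 had up to 137 counts and PECAM1 up to 114 at 48 h, and KDR up to 37 at 72 h. Mean levels of CD14, PECAM1 and KDR were 2.98, 2.31 and 0.719 CPM in the control and 5.44, 4.20 and 0.842 CPM at 48 h. The summed level was 5.12 to 14.99 CPM for the fibroblast markers, 1.43 to 6.07 CPM for the endothelial markers and 3.97 to 32.8 CPM for the leukocyte markers. The highest sums of the fibroblast and leukocyte markers were at 72 h and came from COL1A1, at 13.9 CPM there, and CD68, with a mean of 26.7 CPM there against 1.15 CPM without EGF. Another annotated gene on the same strand covers 81.7% of the exon bases of CD68, so that its reads may be lost or assigned elsewhere. In these bulk samples of 1 cell line, fewer cells that express a gene and less RNA per cell cannot be told apart.

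The promoters of MET, MST1R and AXL are shown since these 3 genes rose most. The bases are from RefSeq on GRCh38.p14, where windows were found for 9 of the 10 receptors, read along the strand of the gene, and run from 250 to 51 bases before the annotated start. Capitals mark the E-box CAGGTG, which is bound by EMT factors of the SNAI and ZEB families.
MET, chr7:116671946-116672145, + strand: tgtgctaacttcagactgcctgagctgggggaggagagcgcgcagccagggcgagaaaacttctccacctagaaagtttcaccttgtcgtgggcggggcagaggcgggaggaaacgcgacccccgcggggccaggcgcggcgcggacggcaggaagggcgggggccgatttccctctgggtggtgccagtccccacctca
MST1R, chr3:49903924-49904123, − strand: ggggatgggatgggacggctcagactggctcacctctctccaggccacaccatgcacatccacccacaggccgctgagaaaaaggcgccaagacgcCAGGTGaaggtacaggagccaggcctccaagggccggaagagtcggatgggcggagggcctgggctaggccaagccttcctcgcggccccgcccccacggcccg
AXL, chr19:41218973-41219172, + strand: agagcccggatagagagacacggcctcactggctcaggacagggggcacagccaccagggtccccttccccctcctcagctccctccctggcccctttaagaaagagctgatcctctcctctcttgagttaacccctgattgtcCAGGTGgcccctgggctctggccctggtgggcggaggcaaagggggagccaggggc
The E-box, searched on both strands of the window from 250 bases before to 50 after each start, was found in the MST1R window, in 1 of 2 AXL windows, in 1 of 5 FGFR2 windows and in 4 of 8 DDR1 windows. DDR1 windows 3 and 4, from base 30883658 and from base 30883834, overlap and hold the same site. The E-box was absent from the windows of MET, MERTK, IGF1R, INSR and FGFR3, and 20.6% of all 35116 windows of this length hold it. The AP-1 site TGANTCA was found in 1 window of DDR1, against 7.71% of all windows. The MET, MST1R and AXL windows shown had a GC content of 69.3%, 71.3% and 66.0%, against a median of 58.7% over all windows. These matches describe letters in the window and not binding, which was not measured.

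EGF-treatment was followed by higher mRNA levels of MET, MST1R, AXL, IGF1R and INSR at all 4 time points and by lower levels of FGFR2 and FGFR3 at all 4. FGFR1 was lower from 24 h on, MERTK was lower at 24 and 48 h, and DDR1 was higher at 12 and 48 h. After 12 h, 6 of the 10 receptors were higher and 2 were lower than in the control, while 69.4% of all genes tested were called, 32.9% higher and 36.5% lower. At 24 h, 5 were higher and 4 lower, and 58.8% of all genes were called (29.2% higher, 29.6% lower). At 48 h, 6 were higher and 4 lower, with 45.8% of all genes called (24.0% higher, 21.8% lower). At 72 h, 5 were higher and 3 lower, with 61.6% of all genes called (30.6% higher, 31.0% lower). Since a large share of all genes responded, a call by itself does not set a receptor apart, and the size of the change is given with each gene. The libraries of a time point and the control did not overlap for 60.8%, 48.2%, 34.9% and 52.0% of all genes, in the order of the time points. The 4 comparisons share the 4 control libraries.

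**Figure D1:**
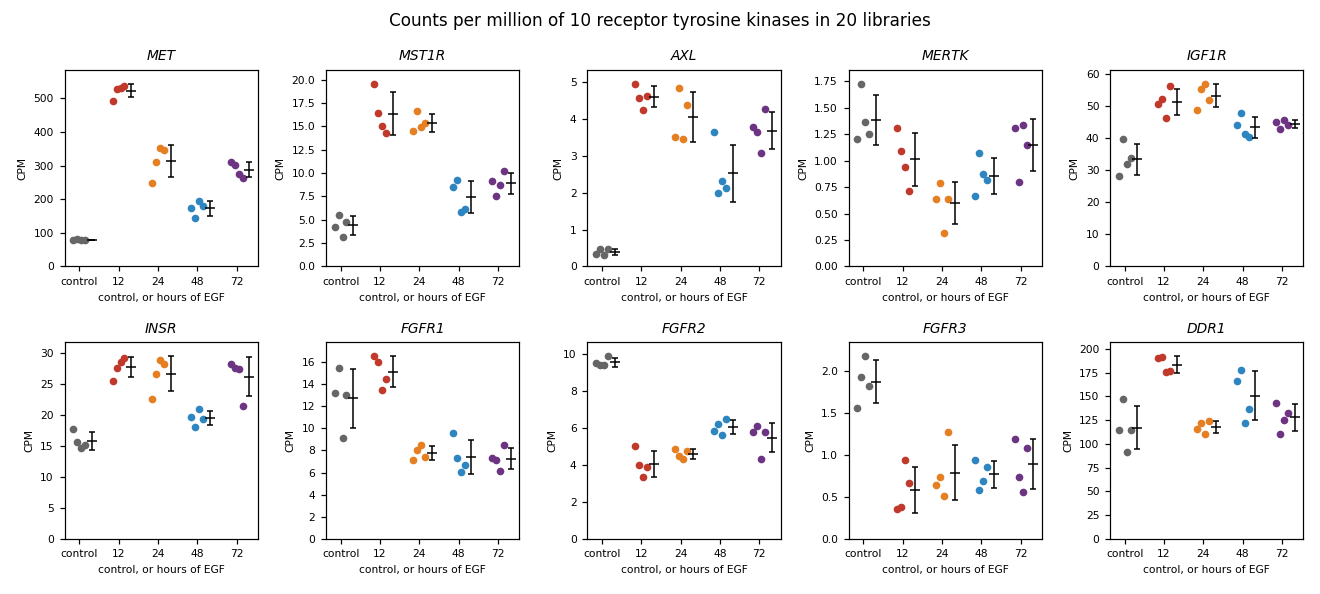
CPM of each receptor in each of the 20 libraries (points, 4 per group) with the mean ± SD of the group (black) by group (control and 4 times of EGF); each panel has its own axis from 0. MET, MST1R and AXL lie above all controls at every time point, and FGFR2 and FGFR3 lie below all controls.

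**Figure D2:**
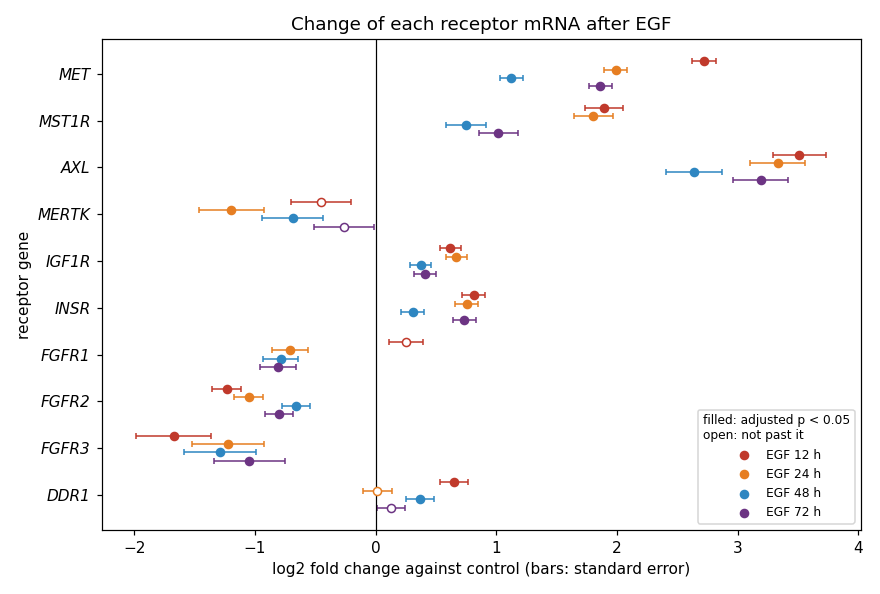
Log2 fold change of each receptor against the control at the 4 times of EGF, with the standard error as bars; filled points had an adjusted p under 0.05 and open points did not. AXL and MET changed most, with 3.51 and 2.72 at 12 h, and FGFR3 is the lowest, with −1.67 at 12 h.

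MET, the receptor of hepatocyte growth factor (HGF), lies on chromosome 7 from 116672390 to 116798386 on the + strand and has 24 merged exons in GENCODE 29. In the 4 control libraries, MET was at 78.6, 80.3, 78.8 and 79.3 CPM. After 12 h of EGF it was at 493, 529, 531 and 537 CPM. The 24 h libraries were at 248, 310, 354 and 346 CPM and the 48 h libraries at 174, 144, 194 and 179 CPM. At 72 h the values were 312, 303, 275 and 263 CPM. Every EGF library was thus above every control library, and the 48 h libraries were below those of all other EGF times. It rose by 2.72 on the log2 scale (SE 0.0987, adjusted p = 5.66e-17) at 12 h, a 6.59-fold rise, and 1.12 (SE 0.0947, adjusted p = 8.66e-10) at 48 h, a 2.18-fold rise. Only 2.23% of all genes tested had a higher fold change at 12 h, and 9.27% did at 48 h. Tested directly, MET fell by 0.73 on the log2 scale from 12 to 24 h, fell by 0.87 from 24 to 48 h and rose by 0.74 from 48 to 72 h (adjusted p = 6.25e-07, 6.71e-08 and 1.22e-06). From 12 to 48 h the drop was 3.03-fold (adjusted p = 6.37e-13, with 70.3% of all genes called). At 72 h MET was still 0.86 below the 12 h level on the log2 scale (adjusted p = 2.32e-08), in a comparison in which 67.6% of all genes were called. It was not distinguishable from the 24 h level, with a log2 difference of −0.13 (95% interval −0.32 to 0.07).

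MST1R, also named RON, is the receptor of macrophage-stimulating protein and the closest relative of MET. It lies on chromosome 3 from 49887002 to 49903873 on the − strand, with 17 merged exons, and genes on the opposite strand cover 6.78% of its exon bases. Its levels were 4.22, 5.51, 3.12 and 4.71 CPM in the control and 19.5, 16.5, 15.1 and 14.3 CPM at 12 h. They were between 14.5 and 16.6 CPM at 24 h, between 5.77 and 9.29 CPM at 48 h and between 7.51 and 10.2 CPM at 72 h. All EGF libraries lay above all controls, although the lowest library at 48 h was close to the highest control. MST1R rose by 1.89 on the log2 scale (SE 0.160, adjusted p = 2.44e-10) at 12 h and 1.80 at 24 h, and 0.75 (SE 0.165, adjusted p = 6.72e-04) at 48 h and 1.02 at 72 h. The fall came between 24 and 48 h, where MST1R dropped by 1.06 on the log2 scale (adjusted p = 4.85e-06), and at 72 h it was 0.79 below the 24 h level on the log2 scale (adjusted p = 2.22e-04, with 40.2% of all genes called). Unlike MET, it had no called change from 48 to 72 h, with a log2 difference of 0.27 (95% interval −0.07 to 0.60), and the difference between both genes was not tested. When the counts were scaled by the factors per gene that the authors used, MST1R was no longer called at 48 h (0.48, adjusted p = 0.214) or at 72 h (0.56, adjusted p = 0.108).

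AXL and MERTK belong to the TAM receptors, which bind the vitamin K-dependent ligands GAS6 and protein S and which mediate the uptake of dying cells. AXL lies on chromosome 19 from 41219203 to 41261766 on the + strand, with 22 merged exons. It was at 0.352, 0.462, 0.299 and 0.481 CPM in the control, which rests on 7 to 11 counts per library. At 12 h it was at 4.95, 4.58, 4.25 and 4.64 CPM, on 77 to 98 counts. The levels were between 3.46 and 4.86 CPM at 24 h, between 2.01 and 3.66 CPM at 48 h and between 3.07 and 4.28 CPM at 72 h, with no overlap with the control at any time. Its log2 fold changes were the largest of the 10 receptors at every time point, with 3.51 (95% interval 3.04 to 3.99, adjusted p = 1.41e-12) at 12 h, 3.33 at 24 h, 2.64 (95% interval 2.14 to 3.13) at 48 h and 3.19 at 72 h. Of all genes tested, 1.27% had a higher fold change at 12 h. AXL fell by 0.69 on the log2 scale from 24 to 48 h (adjusted p = 2.07e-03) and was 0.56 higher at 72 h than at 48 h (adjusted p = 0.0163), a call that was lost without replicate 2 or 4 at 48 h or replicate 4 at 72 h (0.47, 0.48 and 0.48). The 48 h libraries were uneven, since replicate 1 was at 3.66 CPM and the other 3 at 2.01 to 2.32 CPM.

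MERTK, on chromosome 2 from 111898479 to 112029561 on the + strand, was lower after EGF. Its levels were 1.21, 1.72, 1.37 and 1.25 CPM in the control and 0.643, 0.791, 0.321 and 0.635 CPM at 24 h, on 24 to 41 and 5 to 14 counts per library. The groups did not overlap at 24 h, where the log2 fold change was −1.20 (SE 0.270, adjusted p = 5.10e-04). At 48 h it was −0.69 (adjusted p = 0.0279), and this call was lost when control replicate 2 or replicate 1 or 4 at 48 h was left out (−0.57, −0.59 and −0.66). No change was called at 12 h (−0.45, 95% interval −0.99 to 0.08) or at 72 h (−0.27, 95% interval −0.79 to 0.26). From 24 to 72 h MERTK rose by 0.93 on the log2 scale (adjusted p = 9.25e-03). The third TAM receptor, TYRO3, is given to complete the family and was chosen after its values were seen. Its log2 fold change was 0.74 at 12 h (adjusted p = 1.67e-06) and 0.27 at 24 h (adjusted p = 0.0421), from 7.98 CPM in the control, with no call later.

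IGF1R and INSR form a family of receptors for insulin-like growth factors and insulin, and both rose less than the 3 genes above. IGF1R, on chromosome 15 from 98648539 to 98964530 on the + strand, was at 28.1, 39.7, 31.8 and 33.9 CPM in the control, at 50.4, 52.2, 46.2 and 56.1 CPM at 12 h and at 48.6, 55.2, 56.7 and 51.8 CPM at 24 h. At 48 h it was between 40.2 and 47.6 CPM and at 72 h between 42.6 and 45.7 CPM, so that even the lowest EGF libraries were above the highest control. IGF1R rose by 0.62 on the log2 scale (SE 0.0877, adjusted p = 1.20e-06) at 12 h, 0.67 at 24 h, 0.37 (adjusted p = 1.24e-03) at 48 h and 0.41 at 72 h. IGF1R fell by 0.29 on the log2 scale from 24 to 48 h (adjusted p = 7.00e-03). Of all genes tested, 20.8% had a higher fold change than IGF1R at 12 h.

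INSR, on chromosome 19 from 7112255 to 7294034 on the − strand, was at 17.8, 15.7, 14.6 and 15.1 CPM in the control and at 25.6, 27.6, 28.6 and 29.3 CPM at 12 h. The 24 h mean was 26.7 ± 2.83 CPM. Libraries at 48 h were at 19.7, 18.1, 20.9 and 19.4 CPM, and those at 72 h were at 28.3, 27.7, 27.4 and 21.5 CPM. The lowest 48 h library was just above the highest control. INSR rose by 0.81 on the log2 scale (SE 0.0950, adjusted p = 5.86e-08) at 12 h, 0.75 at 24 h, 0.31 (adjusted p = 0.0111) at 48 h and 0.73 at 72 h. Like MET, INSR then fell and rose, with a fall by 0.45 on the log2 scale from 24 to 48 h (adjusted p = 4.02e-04) and a rise of 0.43 from 48 to 72 h (adjusted p = 1.03e-03). The correlation of log2 CPM between MET and INSR was 0.93 over the 20 libraries, which share the treatment and are given as a description. With the authors' factors per gene and the filter of 20 counts, the 48 h calls of IGF1R (0.60, adjusted p = 0.0906) and INSR (0.26, adjusted p = 0.0606) were lost. The factors of INSR itself were between 0.974 and 1.02, and the part of the filter was not tested separately.

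The 3 fibroblast growth factor receptors among the 10 fell, FGFR2 and FGFR3 from 12 h and FGFR1 from 24 h. The fall of FGFR1 was not called with the authors' factors per gene, as given below. FGFR2, on chromosome 10 from 121478334 to 121598458 on the − strand, was at 9.49, 9.38, 9.39 and 9.85 CPM in the control and at 5.00, 3.98, 3.31 and 3.87 CPM at 12 h. It was between 4.30 and 4.84 CPM at 24 h, between 5.62 and 6.48 CPM at 48 h and between 4.30 and 6.09 CPM at 72 h, so that no EGF library reached the level of a control. FGFR2 changed by −1.23 on the log2 scale (SE 0.120, adjusted p = 2.96e-09) at 12 h, −1.05 at 24 h, −0.66 (adjusted p = 5.37e-05) at 48 h and −0.80 at 72 h. From 24 to 48 h FGFR2 rose by 0.39 on the log2 scale (adjusted p = 0.0101), and at 72 h it was 0.43 above its 12 h level on the log2 scale (adjusted p = 3.88e-03). These gains left it at 6.03 ± 0.386 CPM at 48 h and 5.47 ± 0.796 CPM at 72 h, against 9.53 ± 0.222 CPM in the control.

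FGFR3, on chromosome 4 from 1793293 to 1808872 on the + strand, was at 1.56, 1.93, 2.18 and 1.83 CPM in the control and at 0.354, 0.381, 0.939 and 0.669 CPM at 12 h, which rests on 31 to 51 and 7 to 17 counts per library. Later libraries lay between 0.513 and 1.27 CPM, all below the lowest control. The log2 fold change was −1.67 (95% interval −2.34 to −1.01, adjusted p = 4.34e-05) at 12 h and −1.05 (95% interval −1.68 to −0.42, adjusted p = 3.48e-03) at 72 h. None of the differences between successive EGF times was called for FGFR3, and their 95% intervals reached from −0.28 to 1.18 between 12 and 24 h.

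FGFR1, on chromosome 8 from 38400215 to 38468834 on the − strand, did not fall at first. It was at 13.2, 15.5, 9.09 and 13.0 CPM in the control and at 16.5, 16.0, 13.5 and 14.4 CPM at 12 h, and the groups overlapped. At 24 h all 4 libraries, at 7.17, 8.08, 8.53 and 7.37 CPM, were below the control. The level stayed between 6.04 and 9.59 CPM at 48 h and between 6.14 and 8.49 CPM at 72 h, with 3 of 4 libraries below all controls at 48 h and 4 of 4 at 72 h. The log2 fold change was 0.25 (95% interval −0.05 to 0.55, adjusted p = 0.116) at 12 h, −0.71 (adjusted p = 2.23e-04) at 24 h, −0.79 at 48 h and −0.81 at 72 h. Between 12 and 24 h it dropped by 0.96 on the log2 scale (SE 0.147, adjusted p = 8.45e-06), and it had no called change after that. With the authors' factors per gene, which could be used for 7 of the 10 receptors, FGFR1 was higher at 12 h (0.81, adjusted p = 0.0409) and no longer called at 24 h (−0.62), 48 h (−0.69) or 72 h (−0.22, adjusted p = 0.607). FGFR4, the fourth kinase of the family, was named after its values were seen and was 1.13 higher on the log2 scale at 12 h (adjusted p = 2.69e-05), from 1.96 CPM in the control, with no call later.

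DDR1, a receptor that is activated by fibrillar and basement membrane collagens and is abundant in epithelia, lies on chromosome 6 from 30876421 to 30900156 on the + strand. It was at 115, 147, 91.4 and 114 CPM in the control and at 190, 191, 175 and 177 CPM at 12 h, with no overlap. At 24 h it was back at 116, 122, 110 and 124 CPM. At 48 h the libraries split into 167 and 178 CPM in replicates 1 and 2 and 122 and 137 CPM in replicates 3 and 4, and only 2 of the 4 were above all controls. The log2 fold change was 0.65 (SE 0.118, adjusted p = 3.57e-05) at 12 h, 0.01 (95% interval −0.24 to 0.27) at 24 h, 0.37 (adjusted p = 0.0136) at 48 h and 0.13 (95% interval −0.12 to 0.38) at 72 h. The 48 h call was lost without control replicate 3 (0.26) or without replicate 2 at 48 h (0.28), and when only the 8 libraries compared were fitted (0.37, adjusted p = 0.0822). At 72 h DDR1 was called higher without control replicate 2 (0.26, adjusted p = 0.0435). The fall from 12 to 24 h, by 0.64 on the log2 scale, had an adjusted p of 9.48e-05.

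Between successive time points, 4 of the 10 receptors fell and 0 rose from 12 to 24 h, while 53.7% of all genes were called (27.9% higher, 25.9% lower). The same 0 rises were counted at an unadjusted p under 0.05 and by DESeq2. The 4 were MET, FGFR1, DDR1 and MERTK, the last of which was lost without replicate 1 or 2 at 12 h or replicate 3 at 24 h. From 24 to 48 h, 5 fell (MET, MST1R, AXL, IGF1R and INSR) and 2 rose (FGFR2 and DDR1), with 50.2% of all genes called (25.9% higher, 24.3% lower). The rise of DDR1 was lost without replicate 3 at 24 h (0.32) or replicate 1 or 2 at 48 h (0.30 and 0.26). From 48 to 72 h, 3 rose (MET, AXL and INSR) and 0 fell, also at an unadjusted p under 0.05 and by DESeq2, with 35.7% of all genes called (17.9% higher, 17.9% lower). The 5 genes that fell from 24 to 48 h are the 5 that were above the control at every time point, and FGFR2, which was below the control, moved up over the same interval. The 24 h libraries enter both comparisons, so that this match is partly built in. Over all genes tested, the lower quartile of the log2 fold change against control was −0.43 at 24 h and −0.25 at 48 h. The upper quartile was 0.42 and 0.39.

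Levels of different genes were compared as CPM per kilobase of merged exons, apart from the summed CPM given last. In the control, DDR1 (12.8 ± 2.51) and MET (11.3 ± 0.108) were the most abundant of the 10, and their libraries overlapped. IGF1R (2.39), INSR (1.51), FGFR2 (1.26), FGFR1 (0.918), MST1R (0.836), FGFR3 (0.386), MERTK (0.295) and AXL (0.0773) followed. Among these neighbours, FGFR1 overlapped with MST1R and FGFR3 with MERTK, and the other neighbours did not overlap. At 12 h MET was at 74.2 ± 2.80 and DDR1 at 20.1 ± 0.943, without overlap, and MET stayed above DDR1 in all libraries at 24, 48 and 72 h. MST1R moved from place 7 in the control to place 4 at 12 h (3.11), between IGF1R and INSR, with which it overlapped. AXL moved from place 10 to place 7 (0.893), above FGFR2 at 0.533, whose libraries it did not overlap. FGFR3 was at place 10 at 12 h, at 0.121. The summed CPM of the 10 genes was 276 ± 31.1 in the control and 826 ± 16.4 at 12 h, of which MET held 63.2% ± 1.63 at 12 h and 42.1% ± 6.03 at 48 h.

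**Figure D3:**
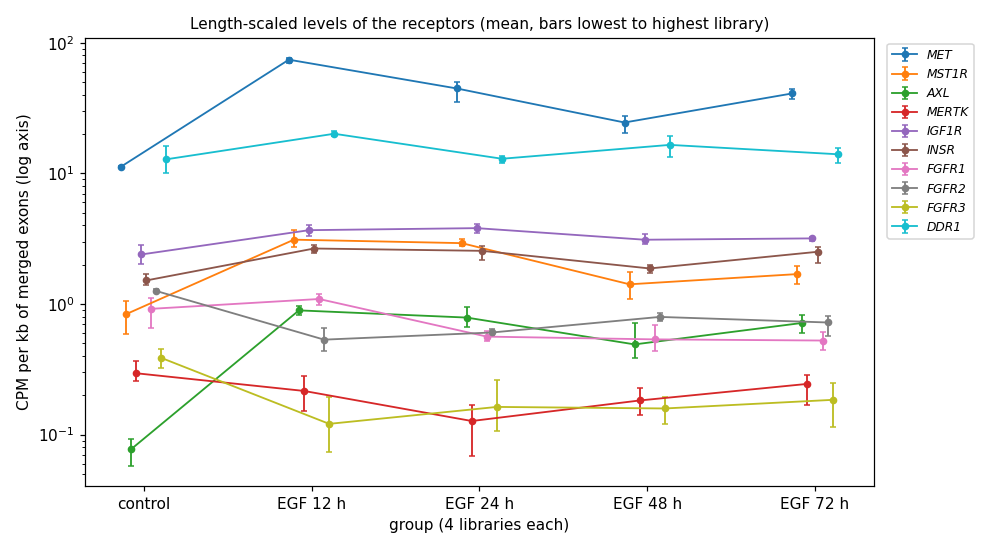
Level of each receptor as CPM per kilobase of merged exons on a log axis in the control and at the 4 times of EGF; points are means of 4 libraries and bars reach from the lowest to the highest library. MET separates from DDR1 at 12 h, and AXL rises from the lowest place to the range of FGFR1 and FGFR2.

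The receptors were next set beside 5 lists of genes around them, with 118 genes in all, of which 82 passed the filter. Of the 82, 53 were higher and 14 lower at 12 h, 39 and 14 at 24 h, 26 and 17 at 48 h and 34 and 19 at 72 h. The shares of all genes tested were 32.9% higher and 36.5% lower at 12 h, 29.2% and 29.6% at 24 h, 24.0% and 21.8% at 48 h and 30.6% and 31.0% at 72 h, and the share of list genes called lower at 48 h was near that of all genes. Among the ligands, 7 of 25 passed the filter. HGF, the ligand of MET, and INS had 0 counts in every library, where a floor of 3 counts corresponds to at most 0.192 CPM. IGF2 had at most 3 counts and PROS1, which codes for protein S, at most 13, while other annotated genes on the same strand cover 73.7% of the exon bases of IGF2 and 31.7% of those of INS, so that their reads may be lost or assigned elsewhere. At 12 h, 1 ligand was higher and 3 were lower, with a median log2 fold change of −0.47 against −0.05 for all genes tested. The shares of all genes were 32.9% higher and 36.5% lower, and counts of so few genes do not set the list apart. The higher ligand was FGF19, on 1 to 7 counts per library at 12 h, where the bound against a floor of 3 counts was 1-fold. FGF1, which binds all FGFRs, was at 1.00, 1.09, 1.54 and 1.44 CPM in the control and between 0.669 and 0.939 CPM at 12 h, with a log2 fold change of −0.65 (adjusted p = 0.0192) that was lost without a filter on low counts (adjusted p = 0.0879) and in 4 of 20 fits without 1 library. FGF19 and IGFBP1, an IGF-binding protein, had 0 counts in all controls, and at 72 h they were at 18 to 54 and 12 to 38 counts per library, at least 12.2-fold and 7.47-fold higher against a floor of 3 counts per library. IGF1 and FGF7, the other ligands called lower at 12 h, changed more than FGF1 (log2 −3.10 and −1.90, adjusted p = 9.26e-06 and 1.33e-06). Neither was called at 24 h (0.26 and −0.53), and neither met the rule for named genes that is given below. FGF19, IGFBP1, IGF1 and FGF7 are named after their values were seen.

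Proteins that activate, bind or inhibit ligands had 15 of 22 genes tested, with 10 higher and 2 lower at 12 h (median log2 fold change 0.54). The shares of all genes were 32.9% higher and 36.5% lower. FURIN, a protease that cleaves the precursors of MET, INSR and IGF1R, had a mean of 18.5 CPM at 12 h against 6.04 CPM without EGF, with no overlap. Its log2 fold change was 1.62 (adjusted p = 2.26e-12) at 12 h and 0.52 at 72 h, where the call was lost with the authors' factors per gene (0.08). PCSK6, another protease of this family, fell to between 2.25 and 2.90 CPM at 48 h from a mean of 6.87 CPM without EGF (−1.37, adjusted p = 1.74e-08). IGFBP5, which binds IGFs outside the cell, was at 46.9, 52.7, 42.3 and 45.7 CPM in the control and at 5.29, 4.41, 4.55 and 5.32 CPM at 24 h, 9.53-fold lower (log2 −3.25, adjusted p = 6.73e-18).

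Of 25 adaptors and proximal signalling genes, all tested, 18 were higher and 4 lower at 12 h (median log2 fold change 0.49), against 32.9% and 36.5% of all genes. At 48 h, 6 were higher and 6 lower (median 0.05), which is close to the 24.0% and 21.8% of all genes. IRS1 and IRS2 are the docking proteins of IGF1R and INSR, and they parted over time. IRS1 was at 2.26, 3.57, 2.82 and 3.22 CPM in the control and at 21.0, 22.4, 22.9 and 21.1 CPM at 12 h, a 7.32-fold rise (log2 2.87, adjusted p = 1.26e-14). At 48 h it was between 2.05 and 2.81 CPM (log2 −0.39, adjusted p = 0.0494), a call that was lost in 8 of 11 other settings and in 15 of 20 fits without 1 library. At 72 h it was between 2.62 and 3.53 CPM, where no change was called (0.11). IRS2 rose from 20.6 to 77.1 CPM at 12 h (log2 1.91) and stayed at 58.6 to 70.1 CPM at 72 h (3.04-fold, adjusted p = 1.27e-11). PIK3R1, a regulatory subunit of PI3K, fell from 84.9, 78.6, 110 and 94.9 CPM to between 17.4 and 23.3 CPM at 12 h (log2 −2.16) and was at 18.9 to 21.3 CPM at 72 h (log2 −2.22, adjusted p = 4.87e-15). At 48 h, when MET, INSR and IGF1R had their smallest fold changes, PIK3R1 was between 34.6 and 38.8 CPM.

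All 15 negative regulators were tested, and 13 were higher at 12 h (median log2 fold change 0.89), against 32.9% of all genes higher and 36.5% lower. At 72 h, 6 were higher and 4 lower (median 0.21), against 30.6% and 31.0% of all genes. The 72 h counts by themselves do not set this list apart. SOCS2, which restrains cytokine and growth factor signalling, was at 2.11, 2.35, 3.37 and 2.11 CPM in the control and at 79.6, 78.7, 81.3 and 81.0 CPM at 12 h, a 31.9-fold rise (log2 5.00, adjusted p = 9.25e-19). It was between 15.9 and 19.7 CPM at 48 h and between 32.3 and 41.2 CPM at 72 h. Its relative SOCS3 was between 30.9 and 41.6 CPM at 12 h against a control mean of 3.11 CPM (log2 3.55) and at 4.05 to 5.32 CPM at 24 h (log2 0.59). SH3KBP1, which works with the ubiquitin ligase CBL in the uptake of activated receptors, reached 251 to 293 CPM at 24 h, above control values of 65.0 to 77.8 CPM (log2 1.95, adjusted p = 3.26e-17).

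Other receptor tyrosine kinases had 20 of 31 genes tested, of which 11 were higher and 5 lower at 12 h (median log2 fold change 0.72) and 9 were higher and 3 lower at 72 h (median 0.34). Of all genes tested, 32.9% were higher and 36.5% lower at 12 h, and 30.6% and 31.0% at 72 h. ROS1, a receptor that is best known as a fusion oncogene, was at 3.72, 5.21, 6.10 and 5.33 CPM in the control and at 7.90 to 9.04 CPM at 12 h. It was at 30.6 to 37.1 CPM at 24 h and at 98.1, 82.4, 99.8 and 98.7 CPM at 48 h, an 18.5-fold rise (log2 4.21, adjusted p = 2.01e-19), with 83.8 to 90.1 CPM at 72 h. ROS1 was thus lowest among the EGF groups at 12 h, when MET was highest. FGFRL1, an FGF receptor that lacks the kinase, rose to between 28.3 and 31.5 CPM at 12 h from between 3.84 and 6.26 CPM (log2 2.56, adjusted p = 1.94e-14). The means of FGFR2 and FGFR3 were lowest at 12 h, but neither had a called change from 12 to 24 h (log2 0.18 and 0.45). STYK1 rose to between 3.46 and 4.22 CPM at 72 h from between 0.715 and 1.66 CPM (log2 1.62, adjusted p = 6.96e-07).

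**Figure D4:**
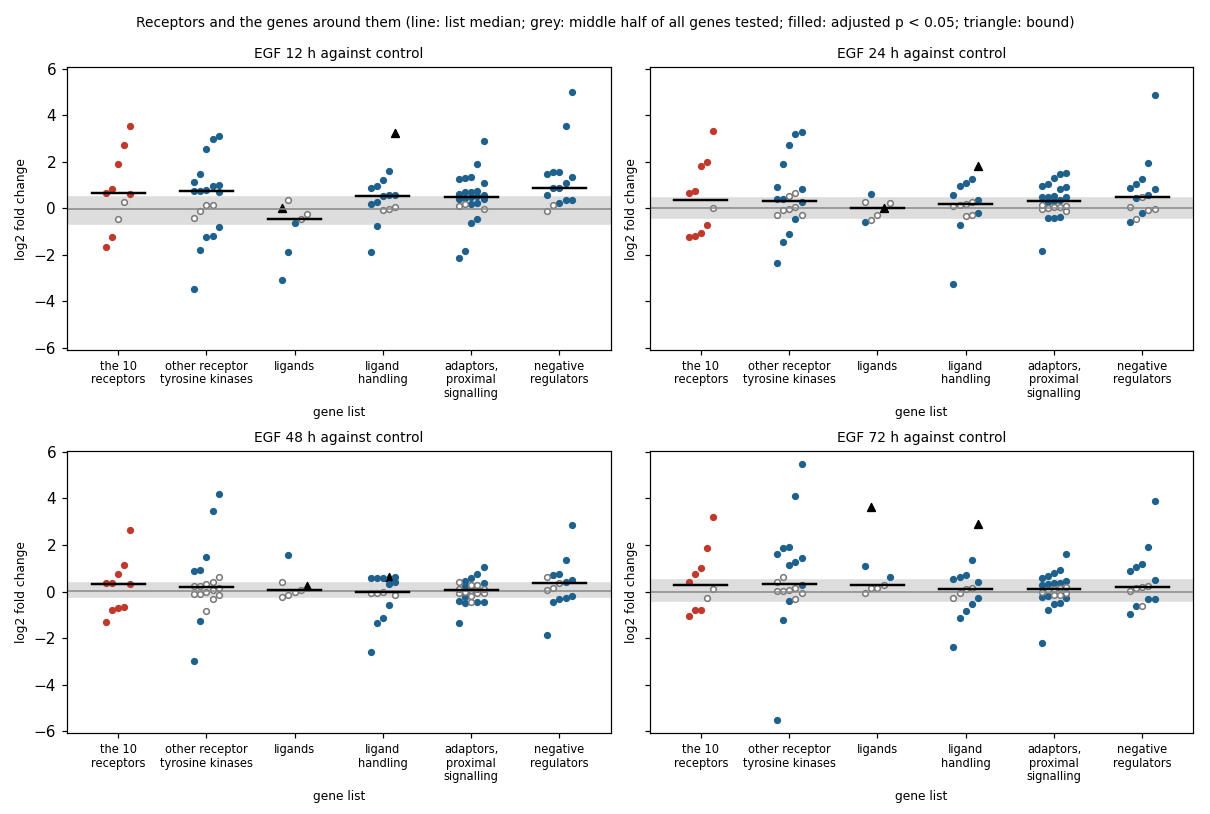
Log2 fold change against the control of the 10 receptors and of the 82 tested genes of 5 lists around them, in a panel for each EGF time; filled points had an adjusted p under 0.05, black lines are list medians, the grey band reaches from the lower to the upper quartile of all genes tested, and triangles are bounds for genes with 0 counts in all controls. The list of negative regulators has the highest median at 12 h, 0.89, and at 72 h all list medians are between 0.10 and 0.34.

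**Figure D5:**
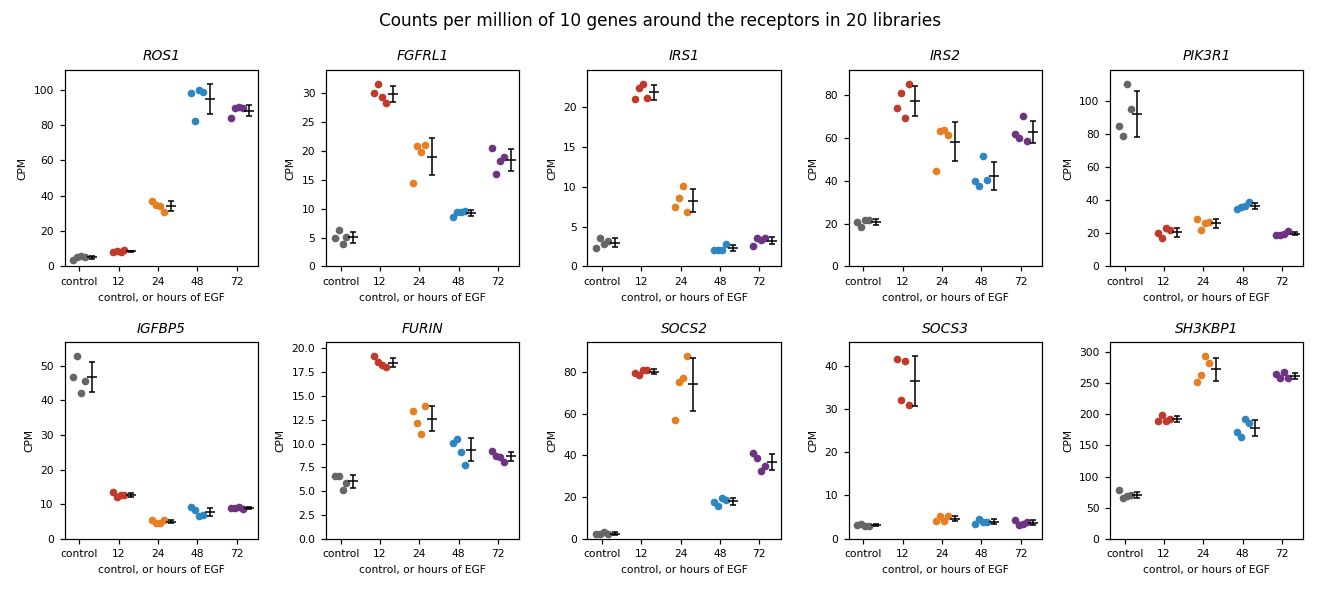
CPM of 10 genes around the receptors in each of the 20 libraries (points) with the mean ± SD of the group (black), by group (control and 4 times of EGF); each panel has its own axis from 0. IRS1 and SOCS3 are highest at 12 h and near the control by 48 h, ROS1 is highest at 48 h, and PIK3R1 and IGFBP5 are below the control throughout.

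For each receptor, the 2 genes with the most similar course were sought by the correlation of log2 CPM over the 20 libraries, among genes at 1 CPM or more. For MET these were ABL2, a cytoplasmic tyrosine kinase (r = 0.994), and ITGA2, the collagen-binding integrin subunit (r = 0.993). For AXL they were SEC14L2 (r = 0.991) and LAMB3, a laminin chain (r = 0.988), and for INSR they were PLEKHB2 (r = 0.974) and KATNAL1 (r = 0.964). MST1R was nearest to S100A11 (r = 0.968) and EHBP1L1 (r = 0.967), and IGF1R to ARHGAP32 (r = 0.958) and MAP4 (r = 0.952). FGFR1 was nearest to the cathepsin gene CTSZ (r = 0.951) and CDC42SE1 (r = 0.949), FGFR2 to TRIM3 (r = 0.949) and FAM120AOS (r = 0.944), and DDR1 to MRTFA (r = 0.938) and CBLC (r = 0.931). The weakest matches were those of MERTK with TMEM141 (r = 0.830) and BRK1 (r = 0.826) and of FGFR3 with DYNLL2 (r = 0.837) and KYNU (r = 0.826). Among the 10 receptors, MET and FGFR2 ran most opposite (r = −0.93), and FGFR2 and FGFR3 were alike (r = 0.74), while FGFR1 was close to neither (r = 0.08 and 0.07). All values are descriptions over libraries that share the treatment, with no test.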

How the data were processed

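The authors deposited 10 tables, each with 60271 genes of MDA-MB-468 libraries (Lexogen Corall mRNA kit, 75 bp single-end reads, Illumina NS500). The deposited estimated counts, rounded to whole numbers and not normalized, are the same in all 10 tables and were the start here. Their normalized values, which the authors deposited as a score without a stated unit, were used only to recover factors per gene. The tables' fold changes and p-values are the authors' own comparisons and were not used. The submitters' processing notes name hg38 and DESeq2. The aligner and the handling of unique molecular identifiers are not given in the sources used here, so that counts may hold PCR duplicates. Genes were placed by GENCODE 29, in which 58036 IDs were found.

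Tests used edgeR 4.0.16 (with limma 3.58.1, R 4.3.3): filterByExpr, TMM, 1 mean per group over all 20 libraries, and the robust quasi-likelihood test, adjusted by Benjamini-Hochberg for the 16522 genes tested. The fit was run beforehand on simulated counts in which few genes changed. That run does not check the scaling or the error rates where most genes respond. A gene is called at an adjusted p under 0.05. Intervals are log2 fold change ± a t quantile times the SE and, like floors of 3 counts, do not cover steps before counting. The labels call the replicates biological. Named are the 10 receptors, the 2 genes most like each, and up to 3 genes per list with the largest called change, if all 4 EGF libraries lay above, or all below, the controls and the mean over all libraries was 1 CPM or more. The receptors and lists were chosen with earlier results of these data known. Alternatives were other scalings, DESeq2 1.42.0, other filters, a prior count of 2, glmTreat, only the libraries compared, a replicate block and leaving out each library. For FGFR1 no promoter is reported, and protein sequences were not used here.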

Additional observations from a re-analysis of the deposited data

Results flagged for a closer look

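Among 50 sets of 4 libraries (10 receptors in 5 groups), 1 library stood apart, by a gap of 0.868 of the range, and chance gives about 1 in 20. INSR in replicate 4 at 72 h was at 21.5 CPM, while the other 3 libraries were at 27.4 to 28.3 CPM. FGFR1 had effects of opposite sign at 12 h (0.25, not called) and at the later times. Tested directly, its log2 level at 24 h was −0.96, at 48 h −1.04 and at 72 h −1.06 relative to 12 h, each called.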

How the results depend on the processing

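Of the 40 fold changes of receptors against the control, all 40 kept direction and call under DESeq2's test, DESeq2's size factors, a prior count of 2 and the replicate block. Deviations of same-numbered libraries from their group means correlated at r over 0.1 in 5 of 40 pairs (median 0.01, highest 0.35). Of the 20 libraries, 8 were closest to their own number. These values do not settle whether the numbers pair samples. The replicate block left 6 and 2 receptors called higher and lower at 12 h. Scaling by library size moved the median of all genes by −0.28 at 12 h and by −0.14 at 24 h, and left 30.2% instead of 47.4% of the calls at 12 h higher. It turned FGFR1 at 12 h to −0.035, DDR1 at 24 h to −0.13 (−0.037 by upper quartile), and, between 12 and 48 h, IGF1R from −0.24 to 0.050 and DDR1 to 0.010. MERTK at 12 h was called by library size (−0.74) and by upper quartile (−0.62). Library size gave 1 receptor higher from 12 to 24 h and 1 lower from 48 to 72 h.

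The factors per gene could be used for 7 receptors (AXL, MERTK and FGFR3 had too few counts) and left 1 lower receptor at each time and 2 and 3 higher ones at 48 and 72 h. From 24 to 48 h they left 1 higher and 3 lower, and of the list genes 6, 8 and 11 lower at 12, 24 and 48 h. IRS1 at 72 h turned to −0.27. With 10 counts in every library, 1, 2 and 2 receptors were lower at 12, 24 and 48 h and 6 list genes were lower at 12 h, since fewer genes were tested. Against a 1.5-fold change (glmTreat), 3, 2 and 3 receptors were higher at 24, 48 and 72 h and 1 was lower at 48 and 72 h. List genes were then 26, 21, 10 and 19 higher and 9, 4, 6 and 7 lower at the 4 times. Between successive times, 1 fell from 12 to 24 h, 2 fell and 0 rose from 24 to 48 h, and 0 rose from 48 to 72 h. Where not stated, the cause was not tested.

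Without 1 library, 6 to 7 receptors were higher and 2 lower at 12 h, 5 and 4 at 24 h, 5 to 6 and 3 to 4 at 48 h, and 5 to 6 and 3 at 72 h. From 24 to 48 h 1 to 2 rose, and from 48 to 72 h 2 to 3 rose and 0 to 1 fell. From 12 to 24 h 0 rose and 3 to 4 fell, and from 24 to 48 h 5 fell. Of the list genes, 51 to 54, 34 to 40, 25 to 31 and 34 to 35 were higher and 13 to 14, 10 to 15, 15 to 19 and 18 to 21 lower at the 4 times. DDR1 at 24 h was between −0.087 (without control replicate 3) and 0.15, PCSK6 at 12 h between −0.14 and 0.029 (without replicate 4 at 12 h), FGF1 at 72 h between −0.26 and 0.028 (without control replicate 3) and IRS1 at 72 h between −5.6e-04 (without control replicate 1) and 0.22. FGFR1 at 12 h was called without control replicate 2 (0.37). AXL, MERTK and FGFR3 rest on 5 to 98 counts per library, which limits their precision.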

Other observations

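The factors that turn the deposited counts into the deposited normalized values differed between the receptors. Relative to the median factor of each library over 11956 genes, they were between 0.974 and 1.02 for INSR in all 20 libraries. For FGFR1 they ranged from 0.854 to 1.65 in the control and from 0.634 to 2.15 at 24 h, and for MST1R from 0.598 to 1.55 in the control. For MET the mean factor was 1.23 ± 0.183 in the control and 0.990 ± 0.0516 at 12 h, so that the fold change of MET was larger with these factors, 3.01 in place of 2.72 on the log2 scale. What the factors correct for is not given in the sources used here.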
